A study of Mus musculus with 4 samples.

Results

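The DNAM-1- natural killer (NK) cells of leukaemic spleen were compared with the DNAM-1- NK cells of normal spleen, gene by gene. DNAM-1, encoded by Cd226, is an activating receptor by which NK cells recognise ligands on tumour cells. Genes were compared where they were protein-coding and stood at 5 FPKM (fragments per kilobase of transcript, scaled to library size) or more in the higher of the 2 libraries. Of 15844 protein-coding genes listed in any library of the series, 8443 met this rule. Each was described by the log2 ratio of the AML level to the normal level, after adding 1 FPKM to both, which understates the difference of low genes. Genes absent from a library's list counted as 0.

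The series holds RNA of DNAM-1+ and DNAM-1- NK cells sorted from spleens of C57BL/6J mice, 6 to 8 weeks old, at day 0 (normal spleen) and at day 17 after transfer of GFP+ MLL-AF9 acute myeloid leukaemia (AML) cells, given without irradiation. Each of the 4 groups is 1 library of total RNA, so no difference has a replicate check, and none carries a p-value. Leukaemia and day cannot be told apart, because the normal cells were taken at day 0 and no mice without leukaemia were sampled at day 17. The labels do not give the other sorting gates, the purity, the handling times or how many mice went into each library. Nor do they say whether both subsets were sorted from the same animals. In such bulk libraries fewer cells of a type and less RNA per cell cannot be told apart.

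The sort was checked on its defining genes. Cd226 stood at 0.45 FPKM in the normal and 0.58 FPKM in the AML DNAM-1- library, and at 38.58 and 36.06 FPKM in the normal and AML DNAM-1+ libraries. Ncr1, which encodes the NK receptor NKp46, stood at 382.7 and 423.4 FPKM in the DNAM-1- libraries. Klrb1c, which encodes the NK1.1 antigen, stood at 317.73 and 378.63 FPKM, and Ptprc, the pan-leukocyte antigen CD45, at 708.76 and 755.07 FPKM. These levels go with both labels. Genes of other cells were present too. The summed level of 17 B cell genes was 1432 FPKM in the normal and 1369 FPKM in the AML DNAM-1- library, against 290 and 322 FPKM in the DNAM-1+ libraries. The 13 conventional dendritic cell genes summed to 3060 and 2963 FPKM, against 837 and 1006 FPKM. Most of that sum came from Cd74 (1458.36 FPKM in the normal DNAM-1- library), H2-Ab1 (555.7 FPKM) and H2-Aa (474.26 FPKM), which B cells also express. In that library Flt3, Zbtb46, Xcr1 and Clec9a stood at 1.49, 2.06, 1.88 and 0.38 FPKM. The sum therefore does not gauge dendritic cells. The estimated depth was 9000000 fragments for the normal and 9200000 for the AML DNAM-1- library. For 8423 genes with a transcript length from GENCODE, the median 95% counting interval of a log2 ratio reached 0.22 to either side. It covers counting error alone, not the spread between mice. It is also approximate, because those lengths may differ from those behind the FPKM.

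Type I interferons act through a shared receptor and a transcription factor complex that includes STAT2 and IRF9 and binds an interferon-stimulated response element, switching on a large set of antiviral genes. NK cells respond to these cytokines, and a low level of the same genes is present in the resting spleen. Heat shock proteins are chaperones that hold or refold other proteins, and the stress-inducible HSP70 genes Hspa1a and Hspa1b are switched on by the heat shock factor HSF1 through heat shock elements.

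The promoters of 5 genes lower in AML are shown, all of which hold the motif searched for. Each runs from 250 bases before to 50 bases after the transcription start, read 5′ to 3′ on the strand of the gene, from RefSeq on GRCm38.p6. Hspa1b lies at chr17:34959189-34959488 on the minus strand and its neighbour Hspa1a at chr17:34972107-34972406 on the minus strand. Capitals in these 2 mark a heat shock element searched as GAANNTTC or TTCNNGAA. Ifit3 lies at chr19:34583279-34583578 on the plus strand, Oas3 at chr5:120777610-120777909 on the minus strand, and Ifitm3 at chr7:141010695-141010994 on the minus strand. In these 3 capitals mark the core of the interferon-stimulated response element, GAAANNGAA, on either strand.
Hspa1b: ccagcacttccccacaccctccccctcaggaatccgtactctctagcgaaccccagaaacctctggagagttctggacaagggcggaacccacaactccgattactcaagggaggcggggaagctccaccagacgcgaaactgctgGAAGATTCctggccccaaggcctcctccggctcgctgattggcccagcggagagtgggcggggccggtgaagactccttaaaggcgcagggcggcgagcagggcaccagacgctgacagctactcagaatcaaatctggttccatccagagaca
Hspa1a: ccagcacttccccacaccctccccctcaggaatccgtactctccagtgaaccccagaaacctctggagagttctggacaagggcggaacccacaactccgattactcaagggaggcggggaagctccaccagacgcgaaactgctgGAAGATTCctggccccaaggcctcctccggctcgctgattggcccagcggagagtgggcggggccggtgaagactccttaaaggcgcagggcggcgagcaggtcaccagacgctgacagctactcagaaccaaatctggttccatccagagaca
Ifit3: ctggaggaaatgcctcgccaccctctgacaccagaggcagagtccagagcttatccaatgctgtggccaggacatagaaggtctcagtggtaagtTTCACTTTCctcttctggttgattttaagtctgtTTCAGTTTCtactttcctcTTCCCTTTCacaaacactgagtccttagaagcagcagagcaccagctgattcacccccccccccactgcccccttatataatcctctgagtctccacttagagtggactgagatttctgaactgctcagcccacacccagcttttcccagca
Oas3: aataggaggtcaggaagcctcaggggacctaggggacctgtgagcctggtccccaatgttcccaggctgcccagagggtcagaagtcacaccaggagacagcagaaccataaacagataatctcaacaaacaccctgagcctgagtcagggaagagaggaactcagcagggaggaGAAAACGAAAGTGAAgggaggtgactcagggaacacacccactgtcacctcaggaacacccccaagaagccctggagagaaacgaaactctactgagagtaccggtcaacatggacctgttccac
Ifitm3: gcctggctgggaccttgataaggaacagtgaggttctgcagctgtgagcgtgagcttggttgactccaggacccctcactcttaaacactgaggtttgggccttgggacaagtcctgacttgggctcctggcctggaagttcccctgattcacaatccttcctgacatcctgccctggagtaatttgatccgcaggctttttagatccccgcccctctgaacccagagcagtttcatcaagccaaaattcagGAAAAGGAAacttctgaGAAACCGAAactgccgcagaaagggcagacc
The Hspa1a and Hspa1b promoters were identical at 296 of 300 positions, with 1 heat shock element each. Ifit3 held 3 interferon-stimulated cores, Oas3 held 2 that overlap and Ifitm3 held 2. Of 32851 promoters in the table, 8.56% held the interferon core and 15.1% a heat shock element, counting both strands. For the 8822 promoters of compared genes these shares were 7.54% and 12.1%. Among the compared genes of the interferon-stimulated list, 35 of 46 had an entry, and 22 of their 47 promoters (46.8%) held the interferon core. Among those of the heat shock list, 26 of 31 had an entry, and 14 of their 33 promoters (42.4%) held a heat shock element. That element was also in 10 of the 47 promoters of the interferon-stimulated list (21.3%). It was in 3 of 14 promoters (21.4%) of the genes at least 1.5-fold higher in AML. Of the 17 genes at least 2-fold lower in AML, 12 had an entry, with the interferon core in 3 and a heat shock element in 4 of their 14 promoters. Oasl2, Oasl1, Slfn1 and Irf7, all among the 17, held no interferon core in this window. A match describes these letters in this window and is not a measured binding site.

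Few genes stood apart between the 2 DNAM-1- libraries. The median log2 ratio over the 8443 genes was 0.00, its SD 0.18, and its 1st and 99th percentiles -0.54 and 0.37. At 2-fold or more, 17 genes (0.201%) were lower in AML and 2 genes (0.0237%) were higher. At 1.5-fold or more, a log2 ratio of 0.58, 64 genes (0.758%) were lower and 14 (0.166%) were higher, while 4198 (49.7%) lay below 0 and 4220 (50%) above. Throughout, the 2-fold and 1.5-fold bounds are set on the log2 ratio with 1 FPKM added. Fold differences given beside a pair of levels are of FPKM alone, so a gene can pass a bound on that scale only. Of the 17 lower genes, 9 belong to the type I interferon-stimulated list, 2 to the heat shock list and 6 to neither. Just inside the 2-fold bound lay Irf7 at -1.0 and just outside it Ifitm3 at -0.96, both lower in AML. Among higher genes, Cd209a at 1.20 was the last inside and Jchain at 0.99 the first outside. At the floor, Utp25 stood at 5 FPKM just inside and Spaca9 at 4.99 FPKM just outside.

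**Figure D1:**
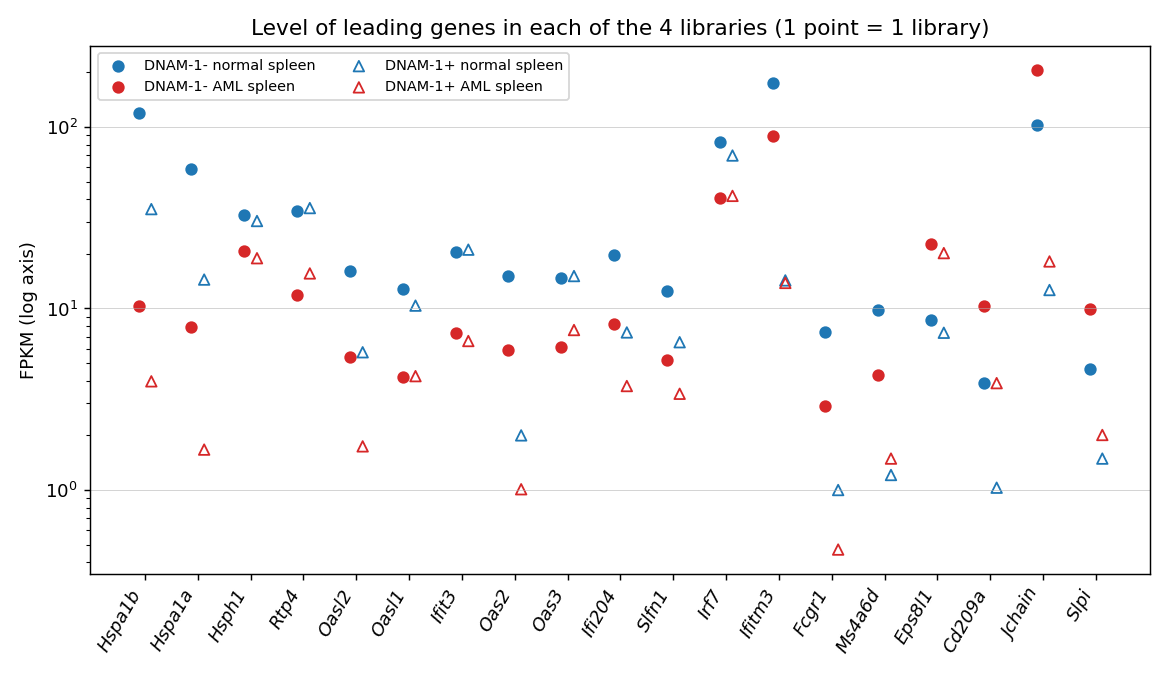
FPKM of 19 genes (log axis) in each of the 4 libraries, with filled circles for DNAM-1- and open triangles for DNAM-1+ cells, blue for normal and red for AML spleen, and no error bars because each group is 1 library. In the DNAM-1- cells the red point lies below the blue one from Hspa1b (118.74 against 10.28 FPKM) to Ms4a6d and above it for Eps8l1, Cd209a, Jchain and Slpi.

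The inducible HSP70 genes gave the lowest ratios of the comparison. Hspa1b stood at 118.74 FPKM in normal and 10.28 FPKM in AML DNAM-1- cells, an 11.6-fold lower level and a log2 ratio of -3.41 (95% counting interval of the ratio without the added FPKM, -3.72 to -3.35). Hspa1a stood at 58.72 and 7.87 FPKM, 7.46-fold lower, with a log2 ratio of -2.75 (counting interval -3.11 to -2.69). The transcripts of these neighbouring genes share 58.8% of the 50-base windows of Hspa1a and 62.3% of those of Hspa1b, so the split of fragments between them is uncertain, and their sum is the firmer value. It was 177.46 FPKM in normal and 18.15 FPKM in AML DNAM-1- cells, 9.78-fold lower, and 49.7 against 5.64 FPKM in DNAM-1+ cells, 8.81-fold lower. In both subsets the AML library was the low one, and within each spleen the DNAM-1- library was the high one.

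Other chaperones differed far less. Hsph1, a nucleotide exchange factor of HSP70, stood at 32.76 FPKM in normal and 20.75 FPKM in AML cells (log2 ratio -0.63), and Hsp90aa1, the inducible cytosolic HSP90, at 120.38 and 80.11 FPKM (-0.58). Below these came the mitochondrial co-chaperonin Hspe1, at 52.56 and 35.85 FPKM (-0.54), the HSP40 Dnaja1, at 71.15 and 48.69 FPKM (-0.54), and the constitutive HSP70 Hspa8, at 923.95 and 664.24 FPKM (-0.48). Hsf1, the regulator itself, stood at 35.46 and 35.43 FPKM, and Hspa5, the HSP70 of the endoplasmic reticulum, at 209.02 and 197.55 FPKM. Of 34 heat shock genes and cochaperones on the list, 31 passed the floor, with 2 at least 2-fold lower, 4 at least 1.5-fold lower, 27 below 0 and a median of -0.12, beside 0.00 for all genes. The list of 25 endoplasmic reticulum stress genes had a median of -0.01, a value that turned to 0.01 when each library was rescaled to the same total. Of 36 immediate early and stress genes, 17 lay above 0 and 19 below (median -0.01, or 0.01 after that rescaling), with Gadd45g at 23.09 and 13.94 FPKM (-0.69), Atf3 at 16.67 and 10.93 FPKM (-0.57) and Nr4a1 at 166.97 and 127.38 FPKM (-0.39) lower, and Dusp2 at 98.39 and 150.3 FPKM (0.61) and Fos at 49.91 and 74.9 FPKM (0.58) higher in AML. The HSP70 pair and the immediate early genes did not go one way together.

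Interferon-stimulated genes made the broadest pattern. Of 56 names on the list 55 were listed in some library and 46 passed the floor as protein-coding genes. All but Lgals9 (0.02) of these 46 were lower in AML, 9 at least 2-fold and 21 at least 1.5-fold, with a median log2 ratio of -0.52 beside 0.00 for all genes. Their ratios ran from -1.46 to 0.02. The lowest was Rtp4, an interferon-induced receptor transporter protein, at 34.49 FPKM in normal and 11.9 FPKM in AML cells, 2.9-fold lower (log2 ratio -1.46, counting interval -1.83 to -1.24).

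The oligoadenylate synthetases, which sense double-stranded RNA, and their close relatives were next. Oasl2 stood at 16.14 FPKM in normal and 5.41 FPKM in AML cells (-1.42), and Oasl1, known to hold back translation of Irf7 mRNA, at 12.83 and 4.2 FPKM (-1.41). Oas2 stood at 15.14 and 5.91 FPKM (-1.22) and Oas3 at 14.7 and 6.17 FPKM (-1.13). Oas1a stood at 24.76 and 15.15 FPKM (-0.67), but shares 57.6% of its 50-base windows with Oas1g, so its value is uncertain. All compared members of this family were lower in AML, between 1.5-fold and just over 3-fold on the FPKM scale.

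The IFIT proteins bind foreign RNA and block its translation. Ifit3 stood at 20.36 FPKM in normal and 7.35 FPKM in AML cells, 2.77-fold lower (-1.36, counting interval -1.79 to -1.16). Together with Ifit3b, a near copy that holds 44.5% of its windows in common with Ifit3, the level was 23.06 and 7.97 FPKM. Ifit2 was at 21.01 and 13.04 FPKM (-0.65) and Ifit1bl1 at 12.13 and 6.83 FPKM (-0.75). Mx1, an antiviral GTPase, stood at 21.61 and 8.65 FPKM (-1.23). It is classed as a transcribed pseudogene in the RefSeq table and is not among the 8443 genes.

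Sensors and effectors of the list spread over a wide range. Ifi204, a DNA sensor of the PYHIN family, stood at 19.83 FPKM in normal and 8.26 FPKM in AML cells (-1.17). The Schlafen gene Slfn1, linked to lymphocyte quiescence, stood at 12.54 and 5.22 FPKM (-1.12), Slfn5 at 18.4 and 9.91 FPKM (-0.83) and Slfn8 at 53.9 and 37.75 FPKM (-0.50). Of the RNA sensors, Dhx58 (LGP2) was at 17.4 and 10.35 FPKM (-0.70), Ifih1 (MDA5) at 7.85 and 5.23 FPKM (-0.51) and Ddx58 (RIG-I) at 39.59 and 32.25 FPKM (-0.29). Zbp1, a sensor of left-handed nucleic acid, stood at 103.2 and 70.28 FPKM (-0.55). Of the ubiquitin-like modifier system, Usp18 stood at 12.26 and 7.29 FPKM (-0.68), Isg15 at 26.52 and 19.98 FPKM (-0.39) and Herc6 at 9.6 and 7.37 FPKM (-0.34). The transcription factor Irf7, which amplifies interferon production and is named here for its place at the 2-fold bound, stood at 82.57 and 40.71 FPKM (-1.0). Factors that carry the signal stood near the median of the list, with Irf9 at 56.3 and 39.62 FPKM (-0.50) and Stat2 at 27.98 and 20.07 FPKM (-0.46). The nuclear body gene Sp100, the most abundant of the list, stood at 354.47 and 295.44 FPKM (-0.26).

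Neighbouring interferon lists were nearer to 0. Of 14 interferon-inducible GTPases, which attack the vacuoles of intracellular pathogens, 13 were below 0, with a median of -0.18. None reached the 1.5-fold bound on the log2 ratio. Gbp6 was the lowest at 11.85 and 7.72 FPKM (-0.56), 1.53-fold lower on FPKM alone. The 23 MHC class I presentation genes had a median of -0.04, from H2-T24 at 39.84 and 27.37 FPKM (-0.53) to H2-Q7 at 224.69 and 305.33 FPKM (0.44). Class I genes are close relatives, and fragments may have been divided among them. The 28 interferon and cytokine receptor and signalling genes had a median of 0.04, with Ifngr1, a chain of the interferon-gamma receptor, at 274.23 and 312.59 FPKM (0.19) and Il15ra, which presents IL-15 to NK cells, at 9.77 and 6.88 FPKM (-0.45).

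**Figure D2:**
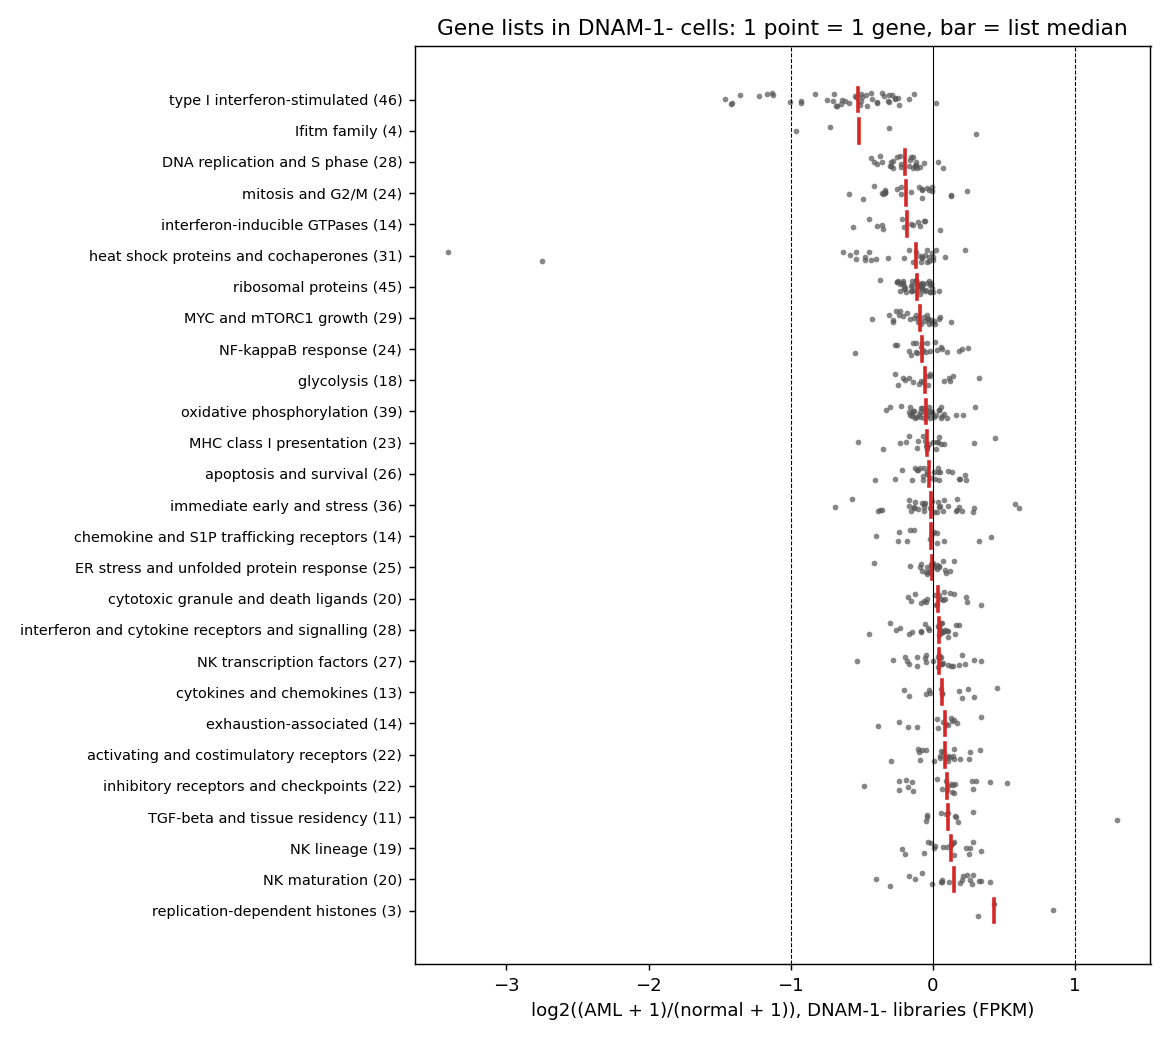
Log2 ratio of AML to normal DNAM-1- cells (after adding 1 FPKM) for each compared member of 27 gene lists, 1 point a gene, with a red bar at the list median, dashed lines at 2-fold and the number of compared members in brackets. The interferon-stimulated list has its median at -0.52, while the heat shock list has 2 points beyond -2 and a median of -0.12.

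The remaining 6 genes at least 2-fold lower in AML came from several families. Fcgr1, the high-affinity IgG receptor of monocytes and macrophages, stood at 7.41 FPKM in normal and 2.92 FPKM in AML DNAM-1- cells (-1.10), and Ms4a6d, a membrane protein of myeloid cells, at 9.81 and 4.29 FPKM (-1.03). Mid1, a microtubule-associated ubiquitin ligase, stood at 19.64 and 8.89 FPKM (-1.06), and Ifi211, a PYHIN family gene, at 10.31 and 4.54 FPKM (-1.03). Cd8b1, the CD8 beta chain, stood at 5.32 and 2.11 FPKM (-1.02), on an estimated 71 and 29 fragments, and Xlr3b, an X-linked lymphocyte-regulated gene, at 6.73 and 2.82 FPKM (-1.02).

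Some of the genes lower in AML stood far higher in normal DNAM-1- than in normal DNAM-1+ cells. Of the 64 genes at least 1.5-fold lower, 15 stood more than 3 times higher in the normal DNAM-1- than in the normal DNAM-1+ library, a split made after the values were seen. Besides Hspa1a and Hspa1b they include Ifitm3, a membrane protein that restricts virus entry, at 173.68 FPKM in normal and 88.8 FPKM in AML DNAM-1- cells (-0.96). In DNAM-1+ cells Ifitm3 stood at 14.28 and 13.83 FPKM (-0.04). Ms4a4c stood at 42.74 and 24.99 FPKM (-0.75), Nupr1, a stress-induced chromatin protein, at 37.1 and 21.99 FPKM (-0.73), and Ifitm6 at 20.4 and 11.94 FPKM (-0.73). Haptoglobin, Hp, stood at 16.16 and 9.48 FPKM (-0.71), and Pla2g7, a phospholipase of macrophages, at 19.41 and 11.9 FPKM (-0.66). Most of the 15 stood at 1 to 3 FPKM in normal DNAM-1+ cells, where the added 1 FPKM draws a ratio towards 0. Where a ratio of such a gene is given for both subsets, as for Ms4a6d and Ms4a4a below, the 2 are not on an equal footing. Without all genes more than 3 times higher in normal DNAM-1- than DNAM-1+ cells, 12 genes were at least 2-fold lower in AML instead of 17.

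Marker genes of myeloid cells were measured beside these values. The 16 monocyte and macrophage genes summed to 1041 FPKM in normal and 1081 FPKM in AML DNAM-1- cells, against 534 and 620 FPKM in DNAM-1+ cells. The 13 non-classical monocyte genes summed to 1185 and 1147 FPKM, against 756 and 827 FPKM. Much of both sums came from genes about as high in normal DNAM-1+ as in normal DNAM-1- cells. Spn stood at 382.36 and 371.4 FPKM there, Itgax at 226.03 and 243.49 FPKM, Itgam at 162.15 and 185.55 FPKM and Ccr2 at 121.93 and 98.35 FPKM. These 2 sums therefore do not gauge myeloid cells. The 14 tissue macrophage and complement genes summed to 432 and 343 FPKM, against 72.4 and 79.8 FPKM, and none of the genes in these 3 lists was at 0 in any library. Within the last list Apoe, an apolipoprotein of macrophages, stood at 334.11 and 266.4 FPKM (-0.33) and C1qb at 16.08 and 9.93 FPKM (-0.64) in DNAM-1- cells, while Apoe stood at 38.84 and 43.0 FPKM (0.14) in DNAM-1+ cells. Of its 8 compared members 7 were lower in AML DNAM-1- cells. The part of such cells in the lower Fcgr1, Ms4a6d, Ifitm3, Hp and Pla2g7 levels was not tested.

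Genes higher in AML were few and mostly of low level. Eps8l1, an EPS8-like regulator of the actin cytoskeleton, stood at 8.67 FPKM in normal and 22.77 FPKM in AML DNAM-1- cells, 2.63-fold higher (log2 ratio 1.30, counting interval 0.94 to 1.88), and at 7.35 and 20.19 FPKM in DNAM-1+ cells (1.34). Cd209a, a C-type lectin of dendritic cells and monocytes, stood at 3.9 and 10.29 FPKM (1.20), on an estimated 30 and 80 fragments, and at 1.03 and 3.88 FPKM in DNAM-1+ cells (1.27). Both genes were higher in AML in each subset. Jchain, which joins immunoglobulin M and A into polymers, stood at 102.94 and 206.15 FPKM (0.99), and at 12.64 and 18.16 FPKM in DNAM-1+ cells (0.49). Of the 10 compared plasma cell genes, Jchain included, 6 were higher and 4 lower in AML, with a median of 0.04. After Jchain the highest was Prdm1, which drives plasma cell differentiation and is also active in NK cells, at 18.25 and 23.38 FPKM (0.34), while Irf4 was the lowest at 13.45 and 12.23 FPKM (-0.13). Below the floor Derl3 stood at 2.38 and 3.62 FPKM (0.45), Tent5c at 3.56 and 4.89 FPKM (0.37) and Sdc1, the plasma cell antigen CD138, at 2.23 and 2.97 FPKM (0.30). The 17 B cell genes had a median of -0.09. The part of plasma cells in the Jchain level was not tested.

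The other 11 genes at least 1.5-fold higher spanned several functions. The protease inhibitor Slpi stood at 4.65 FPKM in normal and 9.96 FPKM in AML cells (0.96), the linker histone H1f2 at 21.34 and 39.14 FPKM (0.85), and Vkorc1, which recycles vitamin K, at 5.17 and 9.33 FPKM (0.74). Zfp36l2, which promotes decay of AU-rich mRNAs, was the most abundant of them at 276.58 and 419.95 FPKM (0.60). Dusp2, a phosphatase of MAP kinases, and Zfp36l2 were at least as far apart in DNAM-1+ cells, at 77.75 and 142.34 FPKM (0.86) and at 255.69 and 409.61 FPKM (0.68). The remaining ones, between 0.59 and 0.68, were Fam174c, Tnfsfm13, Rhpn1, Zxdb, Setdb2 and Zfp771. Setdb2, at 3.11 and 5.3 FPKM, has the same transcription start as the predicted gene Gm45935. The latter went the other way, at 9.23 and 5.76 FPKM (-0.60), so fragments may have been divided between them and the Setdb2 value is uncertain. Fos, at 49.91 and 74.9 FPKM, lay just under the 1.5-fold bound on the log2 ratio (0.576). Fam174c alone of the 14 had the opposite sign in DNAM-1+ cells (-0.33).

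The NK programme itself differed little. Of 19 compared NK lineage genes 14 were higher in AML, none by 1.5-fold, with a median of 0.13. Gzma, a granule protease, stood at 3209.51 FPKM in normal and 4071.91 FPKM in AML DNAM-1- cells (0.34), Cd7 at 209.3 and 255.27 FPKM (0.29), and Prf1, the pore-forming perforin, at 527.58 and 619.89 FPKM (0.23). The summed level of the list was 9760 and 10967 FPKM. The 20 cytotoxic granule and death ligand genes had a median of 0.04, the 22 activating receptors 0.09 and the 22 inhibitory receptors and checkpoints 0.10. Among the inhibitory receptors Klra9, a Ly49 gene whose close relatives may share its fragments, stood at 218.15 and 313.35 FPKM (0.52) and Klrg1, a receptor of mature NK cells, at 98.94 and 131.17 FPKM (0.40). Of 20 NK maturation genes 14 were above 0, with a median of 0.15. The list holds genes of mature and of less mature cells, so this median does not gauge maturation. Cx3cr1 at 42.22 and 53.11 FPKM (0.32) and Prdm1 at 18.25 and 23.38 FPKM (0.34) were higher. Cxcr3, a receptor of less mature cells, was lower at 18.51 and 13.79 FPKM (-0.40). Kit, also on the list, was higher at 7.86 and 9.78 FPKM (0.28), and S1pr5 hardly differed (-0.003). No direction of maturation is read from these values. The 27 NK transcription factors had a median of 0.04, with Myb at 14.9 and 9.97 FPKM (-0.54) at the low end and Prdm1 at the high end, followed by Klf2 at 488.77 and 599.36 FPKM (0.29).

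Trafficking, cytokine and checkpoint genes stayed close to their normal level. Among 14 trafficking receptors Cxcr4 stood at 64.54 FPKM in normal and 86.04 FPKM in AML cells (0.41). The chemokine genes Ccl5 and Ccl3 stood at 4682.1 and 5551.67 FPKM (0.25) and at 248.68 and 286.81 FPKM (0.21). Of 14 exhaustion-associated genes 10 were above 0 and none reached 1.5-fold, with a median of 0.09. They ran from Nr4a1 (-0.39), Havcr2, which encodes TIM-3, at 7.78 and 6.46 FPKM (-0.24), and Tigit at 30.89 and 27.25 FPKM (-0.17), to Nr4a2 at 19.17 and 21.74 FPKM (0.17) and Prdm1 (0.34).

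Proliferation and growth genes were slightly lower. Of 28 DNA replication genes 26 were below 0 with a median of -0.20, and of 24 mitosis genes 21 were below 0 with a median of -0.19. Mki67, the proliferation antigen, stood at 22.69 FPKM in normal and 16.82 FPKM in AML DNAM-1- cells (-0.41), and at 63.25 and 36.32 FPKM in DNAM-1+ cells (-0.78). Cdc20, an activator of the anaphase-promoting complex, stood at 5.67 and 3.43 FPKM (-0.59), the only compared gene of either list past the 1.5-fold bound on the log2 ratio. The medians in DNAM-1+ cells were -0.34 and -0.47. Of 45 ribosomal protein genes 43 were below 0, with a narrow spread around a median of -0.11 and Rps2 the lowest at 598.09 and 461.83 FPKM (-0.37). The 39 oxidative phosphorylation and 18 glycolysis genes had medians of -0.05 each.

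**Figure D3:**
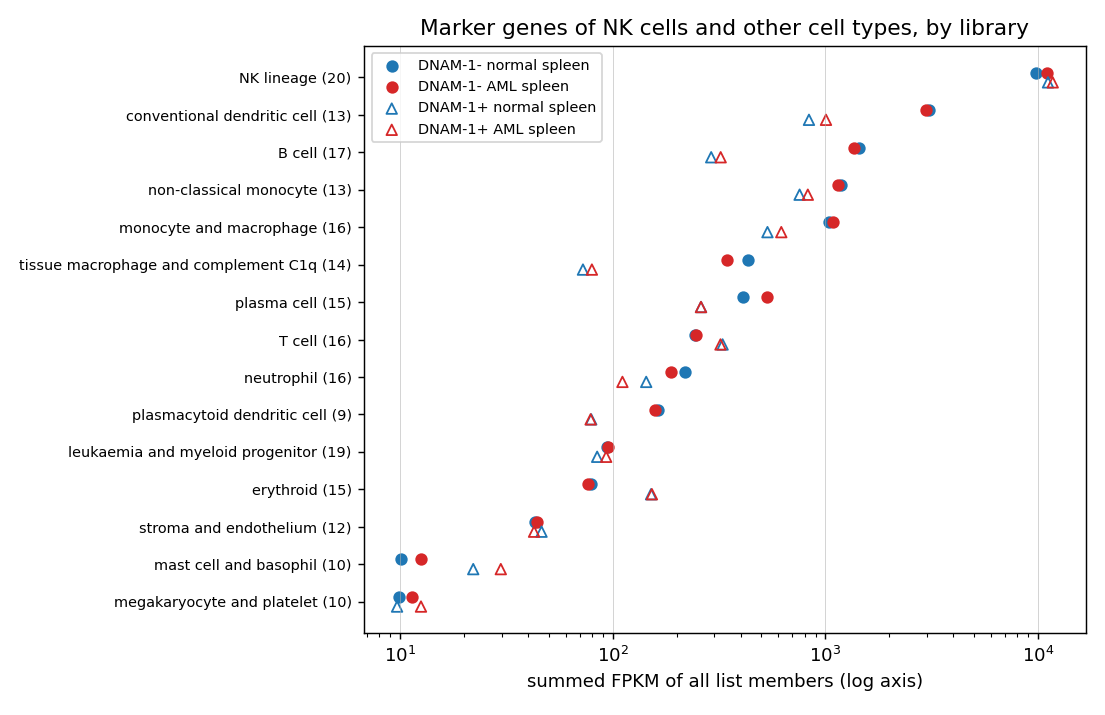
Summed FPKM (log axis) of the marker genes of NK cells and 14 other cell types in each library, with filled circles for DNAM-1- and open triangles for DNAM-1+ cells, blue for normal and red for AML spleen, and the number of listed genes in brackets. In DNAM-1- cells the red and blue points lie close together, the tissue macrophage genes (432 and 343 FPKM) and plasma cell genes (412 and 532 FPKM) among the wider pairs. Most of each of these 2 gaps comes from 1 gene, Apoe (334.11 and 266.4 FPKM) and Jchain (102.94 and 206.15 FPKM), so the sums do not gauge these cells.

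The leukaemia itself was looked for through genes of myeloid progenitors and of MLL-AF9 cells. The 19 genes of that list summed to 93.7 FPKM in normal and 95 FPKM in AML DNAM-1- cells, and 3 and 2 of them were at 0. Most of that sum came from 6 compared genes that lymphocytes also express, Jmjd1c, Mef2c, Myb, Kit, Eya1 and Pbx3. Below the floor, Mpo, the myeloperoxidase of myeloid granules, stood at 0.26 FPKM in normal and 2.29 FPKM in AML DNAM-1- cells, on an estimated 4 and 34 fragments, and at 0.25 and 1.58 FPKM in DNAM-1+ cells. Ctsg, a granule protease, stood at 0.11 and 1.68 FPKM on 1 and 15 fragments, and at 0.11 and 1.1 FPKM in DNAM-1+ cells. The progenitor antigen gene Cd34 stood at 0.05 and 0.5 FPKM on 1 and 12 fragments, and at 0.04 and 0.58 FPKM in DNAM-1+ cells. These 3 were higher in AML in both subsets, at levels far under those of the NK genes. Hoxa9, a target of MLL fusion proteins, stood at 0.04 and 0.18 FPKM on 1 and 3 fragments, within counting error (interval of the log2 ratio -2.09 to 7.27).

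Neutrophil genes were mostly lower, 7 of 8 compared, with S100a9 at 68.31 and 51.46 FPKM (-0.40) and Ngp at 27.87 and 23.16 FPKM (-0.26), and a summed level of 219 and 188 FPKM. T cell genes summed to 243 and 247 FPKM, most of it from Cd247 at 162.13 and 162.98 FPKM, which NK cells also express. Cd3g stood at 9.87 and 9.66 FPKM beside the lower Cd8b1.

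The same comparison in DNAM-1+ cells shares no library with this one. Of 8324 genes compared there, 11 (0.132%) reached 2-fold lower and 3 (0.036%) reached 2-fold higher, while 47.3% lay below 0 and 52.5% above. Over the 8658 genes that reached 5 FPKM in 1 of the 4 libraries or more, Pearson's r between the 2 sets of log2 ratios was 0.403 and Spearman's rho was 0.275. This is a description across genes, which are not independent replicates. Without the interferon-stimulated and heat shock lists r was 0.324 and rho 0.262 over 8580 genes. Of the genes at least 2-fold lower, 7 were shared, 41.2% of the 17 and 63.6% of the 11, and 16 of the 17 had the same sign in DNAM-1+ cells. At 1.5-fold 22 were shared, 34.4% of the 64 in DNAM-1- cells and 26.2% of the 84 (1.01%) in DNAM-1+ cells. Among genes at least 1.5-fold higher 4 were shared, 28.6% of the 14 and 12.9% of the 31 (0.372%).

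The interferon-stimulated list had a median of -0.51 in DNAM-1+ cells, beside -0.52 in DNAM-1- cells. Rtp4 stood at 35.74 and 15.6 FPKM in DNAM-1+ cells (-1.15) and Ifit3 at 21.09 and 6.62 FPKM (-1.54), close to the DNAM-1- levels in both spleens. Mid1 likewise stood at 19.11 and 6.77 FPKM (-1.37). At 1.5-fold, 2 genes were lower in DNAM-1- and higher in DNAM-1+ cells, named here after their values were seen. Ms4a4a stood at 12.23 and 7.02 FPKM in DNAM-1- (-0.72) and 1.63 and 4.18 FPKM in DNAM-1+ cells (0.98), and Pradc1 at 5 and 2.99 FPKM (-0.59) and 3.9 and 6.53 FPKM (0.62). Ms4a6d was the one gene of the 17 with the opposite sign, at 1.21 and 1.49 FPKM (0.17) on an estimated 12 and 14 fragments. That ratio lay within counting error (interval -0.95 to 1.51). Ifi211 stood at 5.58 and 5.44 FPKM (-0.03). Median ratios of lists also differed for immediate early genes, at -0.01 for DNAM-1- and 0.31 for DNAM-1+ cells, and for the 13 compared cytokine and chemokine genes, at 0.06 and 0.31. Fos stood at 18.28 and 43.8 FPKM in DNAM-1+ cells (1.22). These differences between subsets rest on 1 library a group and were not tested.

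**Figure D4:**
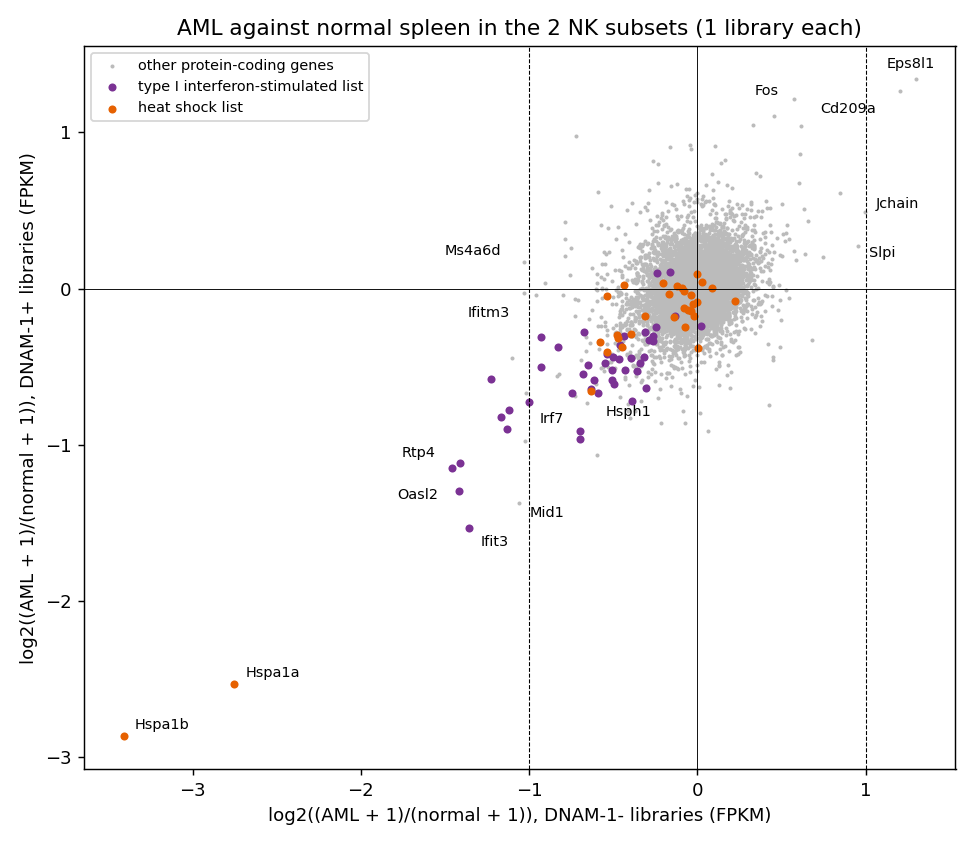
Log2 ratio of AML to normal (after adding 1 FPKM) in DNAM-1- cells (horizontal) and DNAM-1+ cells (vertical), 1 point a gene for the 8443 compared genes, with interferon-stimulated genes in purple, heat shock genes in orange and dashed lines at 2-fold. Hspa1b (-3.41 and -2.87) and Hspa1a (-2.75 and -2.53) lie at the lower left, the interferon-stimulated genes mostly below 0 on both axes, and Ms4a6d (-1.03 and 0.17) and Ifitm3 (-0.96 and -0.04) near 0 on the vertical axis.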

How the data were processed

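The RNA of NK cells sorted from spleen was measured in 1 library for each of 4 groups. Total RNA was sequenced by a BGISEQ-500 protocol, per the labels' protocols. Per the file headers, the authors deposited FPKM, rounded to 2 decimals. Bowtie2 2.2.5 and RSEM are named, without their role, in the submitters' processing notes, and the genome build and annotation are not given in the sources used here. Each file lists only genes above 0. Of 17723 gene numbers, 17668 were given a symbol from RefSeq's genes on GRCm38.p6, and 55 were kept without one.

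Levels were joined by gene number. Log2 ratios used a pseudocount of 1 FPKM and a floor of 5 FPKM in the higher library, and no test was made. Depth was estimated from the FPKM steps of 55 to 100 nt microRNA genes, of whose values 90.3% (normal) and 92.3% (AML) of the DNAM-1- libraries, and 90.7% and 93.9% of the DNAM-1+ libraries, lay within 0.1 of a whole number of up to 6 fragments. Counting intervals follow from that depth and transcript lengths, at 95%. Each length was the median over the gene's protein-coding GENCODE transcripts, which may differ much from the length behind its FPKM. In normal DNAM-1- cells Hsp90aa1, at 120.38 FPKM, was thus given 770 fragments and Rps20, at 72.58 FPKM, 2421. Estimated fragments and intervals of single genes are therefore rough, and an interval can be too narrow or too wide.

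The rule for named genes took Cd226, Ncr1, Klrb1c and Ptprc, the leading genes Hspa1b, Rtp4, Eps8l1 and Jchain, the 15 highest and 15 lowest ratios without predicted names, and in each of 41 lists the 5 largest absolute ratios, or all compared members where 8 or fewer. Further genes, Irf7 and Xlr3b among them, were named by list membership or after their values were seen. A few genes that met the rule are not reported here. The members and lists were chosen with earlier results of these data known. Alternatives were other pseudocounts, floors, gene types and scalings. Scripts ran in Python 3.11.15 with pandas 2.3.3 and scipy 1.17.1, and were checked on simulated data.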

Additional observations from a re-analysis of the deposited data

Results flagged for a closer look

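Of the genes named by rule and reported here, and those past 1.5-fold, 10 were lower in AML than in normal spleen in one NK subset and higher in the other, with both 95% counting intervals leaving out 0. The share of all compared genes that do so was not counted, so it is not known whether 10 is many. The difference between subsets was not tested, since each group is 1 library, and the intervals cover counting error alone. The widest opposition was that of Ms4a4a, at -0.72 for DNAM-1- and 0.98 for DNAM-1+ cells, the latter on only 13 and 32 estimated fragments. Pradc1 had -0.59 and 0.62. Ifitm2 stood at 85.49 FPKM in normal and 68.75 FPKM in AML DNAM-1- cells (log2 ratio -0.31) and at 7.64 and 11.42 FPKM in DNAM-1+ cells (0.52). The signalling inhibitor Socs3 had ratios of -0.23 for DNAM-1- and 0.29 for DNAM-1+ cells, the nuclear receptor Nr4a1 -0.39 and 0.15, and the chemokine receptor Ccr7 -0.24 and 0.47. The ribosomal protein gene Rpl34 had -0.25 and 0.18. Of the genes of antigen presentation, Cd74 had -0.074 and 0.25 and H2-Aa -0.063 and 0.59. Their relative H2-Eb1 was higher in AML in both subsets (0.13 and 0.42). H2-Ab1 had -0.035 and 0.33, the first within counting error. Txndc5, a chaperone abundant in plasma cells, was higher in DNAM-1- and lower in DNAM-1+ cells, with 0.12 and -0.12. Some of the intervals barely left out 0. That of H2-Aa in DNAM-1- cells ended at -0.0002 and that of Txndc5 in DNAM-1+ cells at -0.004. All but Socs3 and Pradc1 of the 10, 8 genes, stood at a higher level in both DNAM-1- libraries than in both DNAM-1+ libraries. The share of all compared genes at a higher level in this way was not counted either, so no pattern is read from the 8.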

How the results depend on the processing

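The 17 genes at least 2-fold lower and the 2 at least 2-fold higher depend on the floor and the pseudocount. With a pseudocount of 0.1 FPKM 20 were lower and 4 higher, and with 5 FPKM 5 and 1. With a floor of 1 FPKM 34 were lower and 14 higher, and with a floor of 20 FPKM 5 and 1. Dropping the floor had to give 34 and 14 again, since with 1 FPKM added no gene under 1 FPKM can reach 2-fold. With all gene types 35 were lower and 17 higher. After rescaling each library to the same total 17 were lower and 4 higher, and after centring 17 and 2. Without genes more than 3 times higher in normal DNAM-1- than DNAM-1+ cells, an alternative chosen after seeing the data, 12 were lower. The correlation with DNAM-1+ cells, r 0.403, was 0.181 with all gene types, 0.400 with a pseudocount of 5 FPKM, 0.5 with a floor of 20 FPKM and, added after seeing the data, 0.324 without the interferon-stimulated and heat shock lists. The cause of these shifts was not tested. Of 198 named genes 10 had a ratio nearer to 0, beyond their counting interval, with a pseudocount of 5 FPKM (Hspa1b -3.02, Hspa1a -2.31, Oasl1 -0.95, Ifit3 -1.04), and only Ly6d and Car2, both within 0.01 of 0, had another sign under an alternative run. Signs of list medians turned for 9 lists near 0 or with few members, among them the immediate early, endoplasmic reticulum stress and trafficking lists. Leaving out a replicate could not be done with 1 library a group. No paired analysis was possible because each group holds 1 library and no mouse is identified in the labels. Depth limits genes near the floor most: Cd8b1 rests on 71 and 29 estimated fragments.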

Other observations

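Below the floor of 5 FPKM, Clec10a, a lectin of dendritic cells, stood at 0.77 FPKM in normal and 2.52 FPKM in AML DNAM-1- cells, beside the higher Cd209a, and the cytokine receptor Flt3 at 1.49 and 2.54 FPKM.

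Interferon-stimulated genes under the floor were lower in AML too. Rsad2, an antiviral enzyme, stood at 3.66 and 0.99 FPKM, Ifit1 at 3.47 and 1.11 FPKM and Ifit3b at 2.7 and 0.62 FPKM. In DNAM-1+ cells Rsad2 stood at 3.04 and 0.55 FPKM.

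Some genes were listed in a single DNAM-1- library, 1060 protein-coding genes in the normal one alone (median 0.06 FPKM) and 577 in the AML one alone (median 0.07 FPKM). The highest of each were a near-identical pair, Cd300ld4 at 4.66 FPKM in normal and listed at 0 in AML, and Cd300ld5 listed at 0 in normal and at 4.79 FPKM in AML. They share 93.8% of their 50-base windows, and their sum was 4.66 and 4.79 FPKM, so the pair as a whole hardly differed.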
